A study of Mus musculus with 2 samples.

Results

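The Pax family comprises 9 genes, Pax1 to Pax9, and all 9 were found by symbol among the 45777 rows of the deposited mm10 gene table. RNA-seq libraries of 1 teratoma sample from E14 cells and 1 from E14-Sox2TA/WT cells were compared. E14 is a mouse embryonic stem cell (ESC) line with unaltered Sox2, labelled WT. E14-Sox2TA/WT cells are E14 cells expanded from single sorted cells after CRISPR/Cas9 editing, and carry the T258A mutation, alanine in place of a threonine that can bear O-GlcNAc, on 1 allele of Sox2. Cells of either line were inoculated subcutaneously with Matrigel into BALB/c-nu mice, 3 per group, and teratomas were harvested after 14 days. Nude mice lack mature T cells but keep B cells and macrophages, and the table does not separate host from donor RNA. How many teratomas entered each library is not given in the sources used here. With 1 library per group, no difference has a replicate check in these data and no p-value was computed. The paper also measured ectodermal markers, Pax6 among them, by quantitative PCR in teratomas of both lines. It reported ectodermal genes as lower in those from E14-Sox2TA/WT cells, and by histology markedly more cartilage in them. Folds carry 95% Clopper-Pearson intervals derived from reads, and levels carry exact Poisson intervals. They cover counting error only and compare the libraries, not the genotypes.

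Pax proteins are transcription factors that bind DNA through a paired domain, and they act early in the formation of organs. Vertebrate members fall into 4 subgroups. Pax1 and Pax9 (subgroup I) have no homeodomain and act in the sclerotome and the pharyngeal pouches. Pax2, Pax5 and Pax8 (subgroup II) keep part of a homeodomain and act at the midbrain-hindbrain boundary, in the kidney and ear, in the thyroid (Pax8) and in B cells (Pax5). Pax3 and Pax7 (subgroup III) have a whole homeodomain and act in the dorsal neural tube, the neural crest and muscle progenitors. Pax4 and Pax6 (subgroup IV) also have a whole homeodomain. Pax6 acts in the eye, the neural tube and the pancreas, and is known to bind DNA together with Sox2 in lens cells, whereas Pax4 acts in the pancreas.

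Reads assigned to genes numbered 50529171 (E14) and 49030281 (E14-Sox2TA/WT). Levels are given in this order, E14 first, throughout, and are in TPM, a unit that corrects reads for transcript length and rescales each library to a fixed sum. Sox2 itself stood at 246 and 130. Both libraries held markers of several tissues. The 5 neuronal markers summed to a TPM of 2370 and 328, the 4 epithelial markers to 310 and 904, the 5 cartilage markers to 117 and 107, the 4 muscle markers to 305 and 150, and the 4 macrophage markers to 638 and 1197. The cartilage sum hides opposite directions. Sox9 was lower, at 44.1 and 16.9, and Col9a1 had 14.3 and 13.7. Col2a1, at 58.0 and 74.8, Acan, at 0.252 and 1.01, and Matn1, with 0 and 46 reads, were higher. The 4 pluripotency markers summed to 60.4 and 1649. These sums went both ways between the libraries, and their part in the differences of the Pax genes was not tested. In bulk RNA, fewer cells of a type and less RNA per cell cannot be told apart.

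Pax6 was the most abundant Pax gene in the E14 teratoma library and Pax3 in the E14-Sox2TA/WT teratoma library, while the summed level of the family was nearly equal. The 9 genes summed to a TPM of 29.1 and 28.6, a ratio of 0.984 (0.933 to 1.04). On FPKM, which is scaled by library size instead of to a fixed sum, this ratio was 1.13, so its direction depended on the scaling. The makeup of the sum differed more. Pax6 held 33.5% of the summed Pax TPM in E14 and 9.16% in E14-Sox2TA/WT. Pax3 held 18.5% and 29.2%, and Pax8 held 12.7% and 21.6%. By subgroup, Pax2, Pax5 and Pax8 together went from 22.8% to 37.0% of the sum, and Pax4 and Pax6 from 33.8% to 9.39%.

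**Figure D1:**
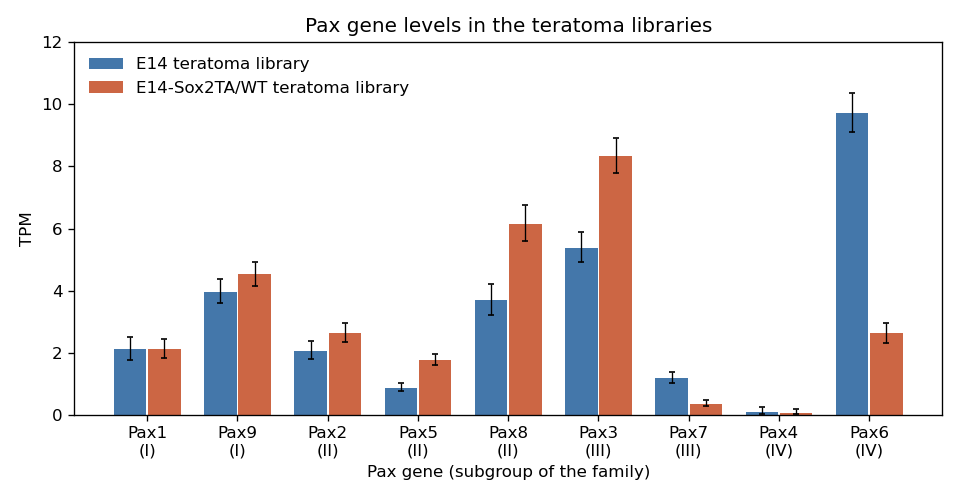
Level of each Pax gene in TPM (vertical axis) in the E14 (blue) and E14-Sox2TA/WT (orange) teratoma libraries, ordered by subgroup (I to IV), with 1 library per bar. Error bars are 95% Poisson intervals of the read counts. Pax6 stands highest at 9.72 among E14 bars and Pax3 at 8.34 among E14-Sox2TA/WT bars.

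In the E14 library, the order of levels was Pax6, Pax3, Pax9, Pax8, Pax1, Pax2, Pax7, Pax5 and Pax4. Counting intervals of neighbours overlapped for Pax9 and Pax8, for Pax1 and Pax2, and for Pax7 and Pax5. In the E14-Sox2TA/WT library, the order was Pax3, Pax8, Pax9, Pax2, Pax6, Pax1, Pax5, Pax7 and Pax4, and Pax2, Pax6 and Pax1 each overlapped with the next in line. Levels were low throughout, and no Pax gene reached a TPM of 10 in either library. The study's rule for DEGs asks for more than a 2-fold difference and for at least 10 TPM in either library, and therefore tested 0 of the 9 members. Applied to the deposited TPM, it called 10.8% of the 11578 genes it tested higher and 18.7% lower. When a TPM of 1 or more sufficed, 8 members were tested, 1 was past 2-fold higher (Pax5) and 2 were past 2-fold lower (Pax6 and Pax7). Pax5 and Pax7 each reached that minimum only in the library where they were higher. Over all 18558 genes tested in that way, 19.3% were higher and 18.9% lower, so that the number of Pax genes past 2-fold was close to that of genes at large. Over these 8 members, log2 ratios computed after adding 1 to each TPM had a median of 0.20, beside -0.06 over all genes tested.

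Pax6, the master regulator of eye development, had 900 and 277 reads. Its TPM was 9.72 (9.10 to 10.4) and 2.62 (2.32 to 2.95), 3.71-fold lower (3.24 to 4.26) in the E14-Sox2TA/WT library. The counting intervals of the levels did not overlap. The fold stayed between 3.15 and 3.71 under all 5 scalings, namely TPM, FPKM, and reads divided by library totals, TMM-corrected totals or median-of-ratios factors. Within a library, the ratio of Pax6 to Pax3 on TPM does not depend on the factor applied to all genes of that library. It was 1.81 (1.61 to 2.02) in E14 and 0.314 (0.273 to 0.360) in E14-Sox2TA/WT, so that the order of the pair turned.

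Pax7, which marks muscle satellite cells and the dorsal neural tube, was also lower. It had 167 and 56 reads, and a TPM of 1.18 (1.01 to 1.37) and 0.351 (0.265 to 0.456), 3.36-fold lower (2.47 to 4.63). Its paralog Pax3, needed for neural tube closure and for the migration of muscle precursors into the limb, went the other way. Pax3 had 475 and 817 reads, and a TPM of 5.38 (4.91 to 5.89) and 8.34 (7.78 to 8.93), 1.55-fold higher (1.38 to 1.74) in the E14-Sox2TA/WT library. The ratio of Pax3 to Pax7 was 4.57 (3.82 to 5.48) in E14 and 23.8 (18.1 to 31.7) in E14-Sox2TA/WT.

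All 3 genes of subgroup II stood higher in the E14-Sox2TA/WT library under each scaling tried. So did Pax3, Pax9 and Pax1, the last by as little as 1.01-fold, so this direction did not set subgroup II apart. Pax5, the regulator of B cell identity that is also expressed at the midbrain-hindbrain boundary, had 173 and 392 reads and a TPM of 0.873 (0.748 to 1.01) and 1.77 (1.60 to 1.96). It was 2.03-fold higher, and its interval of 1.69 to 2.44 reached below 2-fold. Pax8, a regulator of thyroid and kidney, had 228 and 426 reads and a TPM of 3.69 (3.22 to 4.198) and 6.16 (5.59 to 6.77), 1.67-fold higher (1.42 to 1.97). Pax2, which acts in the kidney, optic stalk and ear, had 196 and 276 reads and a TPM of 2.07 (1.79 to 2.38) and 2.63 (2.33 to 2.96), 1.27-fold higher (1.06 to 1.54). The intervals of Pax5 and Pax8 levels did not overlap between the libraries, whereas those of Pax2 did. Summed over the subgroup, the TPM was 6.63 and 10.6, a ratio of 1.59 (1.44 to 1.76).

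The pair of subgroup I differed little. Pax9, needed for the thymus, parathyroid and teeth, had 404 and 531 reads and a TPM of 3.96 (3.58 to 4.37) and 4.52 (4.14 to 4.92), 1.14-fold higher (1.001 to 1.30). Pax1, which acts in the vertebral column, had 134 and 184 reads and a TPM of 2.102 (1.76 to 2.49) and 2.12 (1.83 to 2.45), a ratio of 1.01 (0.804 to 1.27). For Pax1 the deposited units gave different answers, since its reads scaled by library total were 1.42-fold higher in the E14-Sox2TA/WT library and its FPKM 1.16-fold higher. The transcript length implied by its reads and FPKM was 2941 nt in E14 and 3592 nt in E14-Sox2TA/WT, a ratio of 1.22. In 3961 genes with a single listed transcript and at least 100 reads in each library, that ratio lay between 0.994 and 1.01. Pax1 has 2 listed transcripts, and the deposited table does not give their separate levels. Among the other members with enough reads, the implied length changed most for Pax9, with 6 listed transcripts, at a ratio of 1.03. Pax4, an islet factor, had 3 reads in each library, too few for a fold to be computed.

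**Figure D2:**
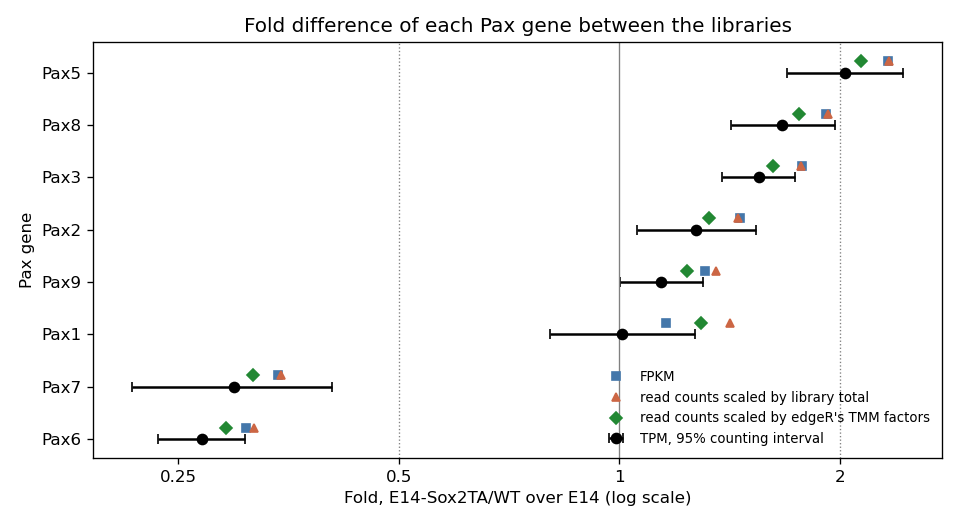
Fold of each Pax gene in the E14-Sox2TA/WT library over the E14 library on a log scale (horizontal axis), for the 8 members with more than 3 reads. Black points are TPM with 95% counting intervals, coloured marks are other scalings, and dotted lines mark a 2-fold difference. Pax6 and Pax7 lie past 2-fold lower under each scaling shown and Pax1 lies closest to 1 on TPM.

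Reads of the Pax genes could mostly be told apart from those of other genes. No stretch of 50 nt was shared in the same direction between transcripts of different Pax genes in the GENCODE annotation, while Pax1 and Pax6 shared some on opposite strands. Stretches also found in other genes made up 0.443% of those of Pax6, 0% of those of Pax2, Pax4 and Pax7, and 7.02% of those of Pax5, the highest share. Those of Pax5 were shared with 2 other genes, whose names were not recorded. The genes 5730488B01Rik, Mir5120 and Gm12462 overlap the Pax5 locus and had at most 8 reads per library. Elp4 overlaps the end of Pax6 and had 2089 and 1606 reads, and no source used here says if strand entered the counting. The opposite-strand transcripts Pax6os1 and Paupar had 0 reads in both libraries.

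The Pax genes lie on 6 chromosomes of GRCm38, the assembly named mm10 elsewhere. Pax6 occupies 105668896 to 105698410 on the plus strand of chromosome 2, which also carries Pax8 and Pax1. Pax7 occupies 139737059 to 139833530 and Pax5 44524748 to 44710694, both on the minus strand of chromosome 4. The 250 bases before the RefSeq start sites of these 3 genes, the members past 2-fold, are shown here. Capitals mark ACAAT and ACAAAG, short core motifs of Sox factors, searched on both strands, so that ATTGT and CTTTGT count as well. The motifs do not overlap in these windows. The start site used for Pax7 lies inside the span given above, not at its end. A stretch just after the start occurs in a GENCODE transcript of the gene for each Pax6 window, but not for Pax7 or Pax5. The windows are from RefSeq on GRCm38.p6, read 5′ to 3′ along each gene, at chr2:105668646-105668895 and chr2:105682213-105682462 for the distal and the internal start of Pax6, chr4:139832969-139833218 for Pax7 and chr4:44710695-44710944 for Pax5.
Pax6, distal start: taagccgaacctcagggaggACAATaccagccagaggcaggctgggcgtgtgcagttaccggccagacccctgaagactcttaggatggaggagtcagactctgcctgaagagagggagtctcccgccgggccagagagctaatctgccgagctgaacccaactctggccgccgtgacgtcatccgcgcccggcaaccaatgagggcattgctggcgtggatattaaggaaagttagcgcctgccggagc
Pax6, internal start: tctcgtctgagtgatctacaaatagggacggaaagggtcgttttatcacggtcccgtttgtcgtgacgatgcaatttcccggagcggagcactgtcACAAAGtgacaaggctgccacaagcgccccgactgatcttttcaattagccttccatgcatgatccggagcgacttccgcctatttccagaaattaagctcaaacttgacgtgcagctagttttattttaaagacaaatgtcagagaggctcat
Pax7: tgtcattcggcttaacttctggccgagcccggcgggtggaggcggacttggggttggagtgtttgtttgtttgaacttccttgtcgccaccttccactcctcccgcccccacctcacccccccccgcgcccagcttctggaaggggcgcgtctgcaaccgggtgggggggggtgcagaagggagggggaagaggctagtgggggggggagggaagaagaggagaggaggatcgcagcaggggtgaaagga
Pax5: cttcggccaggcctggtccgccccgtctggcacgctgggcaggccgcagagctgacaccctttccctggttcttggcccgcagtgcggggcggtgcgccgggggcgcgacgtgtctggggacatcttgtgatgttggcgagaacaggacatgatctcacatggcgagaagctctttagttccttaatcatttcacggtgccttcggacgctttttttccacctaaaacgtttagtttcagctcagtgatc

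Each Pax6 window held 1 match, ACAAT before the distal start and ACAAAG before the internal start, and the windows of Pax7 and Pax5 held 0. RefSeq windows were found for 7 of the 9 members, 10 windows in all, and 5 of the 10 held a match, those of Pax2, Pax6 and Pax9. Over 32851 windows of the same length before all start sites in the table, 38.8% held at least 1 match. A match is a description of the letters and not a bound site, and the deposited table does not separate reads from the different starts of Pax6.

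The genes around the Pax loci did not move as blocks. Elp4, which overlaps Pax6, was lower as Pax6 was, with a log2 ratio of -0.49. The nearest expressed genes outside Pax6 were higher, Rpl10-ps1 with 45.1 and 58.2 and Immp1l with 46.5 and 71.6. Beside Pax7, Aldh4a1 had a TPM of 19.7 and 20.02, and Klhdc7a 2.23 and 3.97. Beside Pax5, Melk had 33.2 and 46.8, and the pseudogene Gm12463 0.936 and 12.2. Pax3 and the lncRNA Gm33152, 4.09 kb upstream of it, were both higher, and Gm33152 had 7 and 85 reads, 10.9-fold higher (5.05 to 27.8). Epha4, on the other side of Pax3, had 18.8 and 12.4. Psd4, beside Pax8, was 4.06-fold higher (3.38 to 4.90), and Cacna1b, the neighbour on its other side, was 4.21-fold lower (3.86 to 4.59). Slf2, beside Pax2, stood at 18.9 and 18.8 and Gm26644, on its other side, at 0.300 and 1.64. Beside Pax4, Arf5 had 180 and 165, and Snd1 had 76.1 and 77.0.

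Pax9 and Pax1 each lie beside a pair of Nkx2 homeobox genes, which pattern ventral neural tube, forebrain and endoderm. These 4 genes were looked up after the neighbours had been seen. Nkx2-1, 155 kb before Pax9, went from a TPM of 74.2 to 0.789, 94.0-fold lower (73.0 to 123), while Nkx2-9, 78.1 kb before Pax9, had 6.53 and 9.06, 1.39-fold higher (1.16 to 1.67). Nkx2-4, 276 kb before Pax1, had 281 and 7 reads, 54.6-fold lower (26.2 to 137), and Nkx2-2, 166 kb before Pax1, was 5.94-fold lower (5.34 to 6.63). Pax9 and Pax1 themselves, at 1.14 and 1.01 on TPM, stood apart from Nkx2-1, Nkx2-4 and Nkx2-2, whose intervals all lay past 5-fold lower. The nearest expressed genes by position went both ways. Gm26973, before Pax9, had 44 and 9 reads, Gm14113, before Pax1, had 41 and 8, Prps1l3, after Pax9, had a TPM of 54.9 and 42.4, and 9030622O22Rik, after Pax1, had 8.68 and 21.1.

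**Figure D3:**
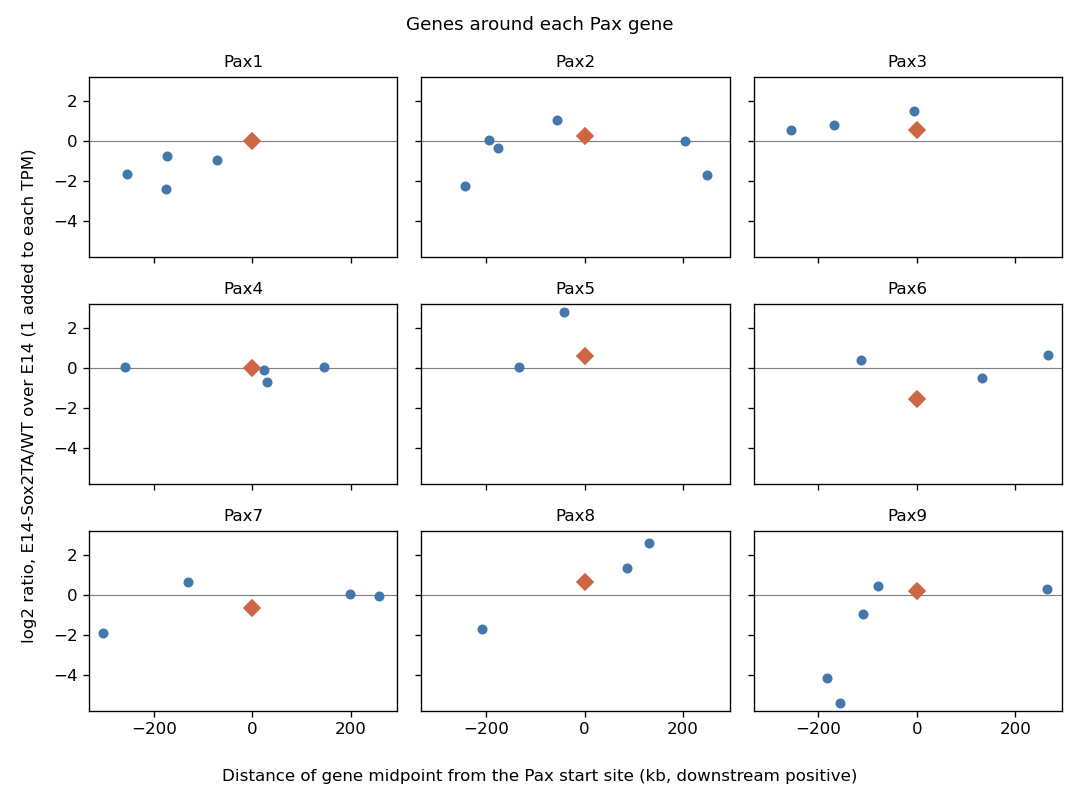
Log2 ratio, E14-Sox2TA/WT over E14 with 1 added to each TPM (vertical axis), of genes that reach into the 250 kb on either side of each Pax start site against the distance of their midpoints in kb (horizontal axis). Diamonds are the Pax genes and circles are other genes with a TPM of 1 or more in either library. Nkx2-1 lies at -5.39 in the panel of Pax9, which itself lies at 0.15.

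Genes known from the tissues in which each Pax gene acts were read next, in 13 lists. Each list is described by how many of its tested genes, those at a TPM of 1 or more in either library, lay past 2-fold, beside the 19.3% higher and 18.9% lower of all genes. Some genes, such as Slc5a5, Iyd, Wt1 and Six3, reached that minimum only in the library where they were higher. The counts are therefore partly set by the filter, for the lists as for all genes. For Pax6, 7 of 8 tested eye field and lens genes were past 2-fold lower and 1 was higher, with a median log2 ratio of -2.67. That median was -1.09 without a TPM minimum and -4.32 on reads scaled by median-of-ratios factors. Six3, Six6 and Lhx2, transcription factors of the eye field, led this list. Six3 went from a TPM of 23.9 to 0.267, 89.5-fold lower (61.3 to 136). Six6 went from 33.8 to 0.419, and Lhx2 from 50.2 to 1.63. These differences were larger than that of Pax6. Vax2, the gene of the list that was higher, had 10 and 38 reads, and the lens genes Cryaa, Cryba1, Crybb2 and Foxe3 had a TPM below 1 in both libraries.

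Among genes of neural tube progenitors, a further site of Pax6, 7 of 10 were past 2-fold lower and 0 were higher, with a median of -1.60. Olig2, which marks motor neuron progenitors, went from 50.2 to 9.38, and Nkx2-2 from 36.3 to 6.11. In the pancreatic islet list, shared by Pax4 and Pax6, 4 of 10 tested genes were past 2-fold lower and 3 higher, with a median of -0.13. The lower genes included Sst, at 86.6 and 17.8, and Insm1, at 28.8 and 5.69, which neurons also express. The higher genes were Mafa, 5.404-fold higher (3.80 to 7.88), Iapp, 4.196-fold higher (2.22 to 8.60), and Gcg, the glucagon gene, with 3 and 32 reads. The insulin genes Ins1 and Ins2 had 0 reads in both libraries.

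For subgroup III, the lists were split. In the dorsal neural tube list, 2 of 9 genes were past 2-fold higher and 2 lower, with a median of 0.57, or -0.46 with a TPM minimum of 10. Zic1 went from 75.8 to 13.0 and Zic4 from 13.8 to 2.57, whereas Zic2 had 38.5 and 28.3. Wnt3a, a roof plate signal, had 14 and 110 reads, 7.27-fold higher (4.15 to 13.7), and Msx2 was 2.004-fold higher (1.59 to 2.54). In the neural crest and melanocyte list, 2 of 7 genes were past 2-fold lower, Sox10, a crest and glial factor, at 21.6 and 6.81, and Ednrb, the endothelin receptor, at 190 and 48.2. The other 5 lay between 1.24-fold (Mitf and Tfap2a) and 1.81-fold higher (Tfap2b), and the median was 0.22, or -1.75 with a TPM minimum of 10. In the dermomyotome and muscle progenitor list, 2 of 8 genes were higher and 1 lower. The median was 0.35, but -0.62 with a TPM minimum of 10 and -0.13 with none. Tcf15, which marks somites, went from 2.06 to 11.5, 5.58-fold higher (4.09 to 7.76), and Lbx1, a factor of migrating muscle precursors that acts with Pax3, from 0.591 to 3.35, 5.67-fold higher (3.97 to 8.29). Myog, a factor of muscle differentiation, had 19.9 and 10.2. Mymk, a fusion protein of myoblasts, was 2.25-fold lower (1.62 to 3.15).

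For subgroup II, the midbrain-hindbrain boundary list had 1 of 8 genes past 2-fold higher and 1 lower, with a median of -0.11, which turned to 0.06 on FPKM. En2, which with Pax2 and Pax5 marks this boundary, went from 4.99 to 13.0, 2.60-fold higher (2.33 to 2.91). Fgf8, the signal of the boundary, had 33.8 and 18.0, Fgf17 was 2.06-fold lower (1.59 to 2.66), and Otx2, which marks the midbrain side, had 45.2 and 36.4. In the kidney and urogenital list, 4 of 10 genes were past 2-fold higher and 3 lower. The higher genes included Wt1, with 11 and 118 reads, and Gdnf, with 27 and 131, and Ret was 2.003-fold higher (1.81 to 2.22). Emx2 went from 9.50 to 0.667 and Lhx1 from 21.0 to 5.55, both of which the embryonic brain also expresses, and Gata3 was 2.90-fold lower (2.51 to 3.35). Sall1, the most abundant gene of the list, had 50.05 and 34.6.

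The thyroid list had 3 of 5 tested genes past 2-fold higher and 2 lower. Nkx2-1 and Foxe1, which with Pax8 and Hhex define thyroid precursors, were both lower, and Foxe1 went from 10.5 to 2.72. Hhex was 4.32-fold higher (3.29 to 5.75), the iodide transporter Slc5a5 was 3.26-fold higher (2.36 to 4.56) and Iyd was 2.48-fold higher (1.37 to 4.73). Thyroglobulin, encoded by Tg, had 0 and 14 reads. In the B cell list, 3 of 11 genes were tested and 2 of them were past 2-fold higher, Vpreb3, at 3.13 and 14.8, and Cd79b, with 23 and 73 reads. The defining B cell gene Ms4a1 had 0 and 4 reads, and Blk had 0 in both, beside 173 and 392 reads of Pax5. Over 5 B cell markers, the summed TPM was 1.83 and 3.96. Ebf1, which other tissues also express, had 6.62 and 5.997.

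For subgroup I, the sclerotome and cartilage list had 3 of 11 tested genes past 2-fold higher and 4 lower, with a median of 0.57, or -1.44 with a TPM minimum of 10. Meox1, a sclerotome factor that acts with Pax1 and Pax9, went from 2.89 to 15.4, 5.32-fold higher (4.48 to 6.35). Tbx18 was 2.36-fold higher (2.07 to 2.69), and Acan, a cartilage proteoglycan, had 47 and 207 reads. Sox9, Sox5, Sox6 and Uncx were lower, with Sox9 at 44.1 and 16.9 and Sox5 at 18.9 and 3.20. Glial and neural cells also express Sox9 and Sox5. Col2a1, the main cartilage collagen, had 58.0 and 74.8. In the pharyngeal pouch and thymus list, 2 of 6 tested genes were past 2-fold higher and 0 lower. Hoxa3, needed for thymus and parathyroid, was 3.49-fold higher (3.04 to 4.01), and Ripply3 was 3.77-fold higher (2.68 to 5.41). Ccl25, a thymus chemokine, had 12.2 and 10.3. Foxn1, the thymus factor, had 4 and 5 reads.

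The last list held proteins that bind Pax factors or act as their cofactors. Of its 8 genes, 1 was past 2-fold lower and 0 were higher, with a median of -0.24. Paxip1, a subunit of a histone methyltransferase complex, had a TPM of 22.6 and 21.3, and Paxbp1 had 43.1 and 40.5. Pagr1a had 68.3 and 55.3, and the corepressor Tle3 had 49.7 and 31.3. Tle2, a Groucho-type corepressor of the same family, was the exception, at 20.3 and 5.88, 3.46-fold lower (3.11 to 3.85).

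**Figure D4:**
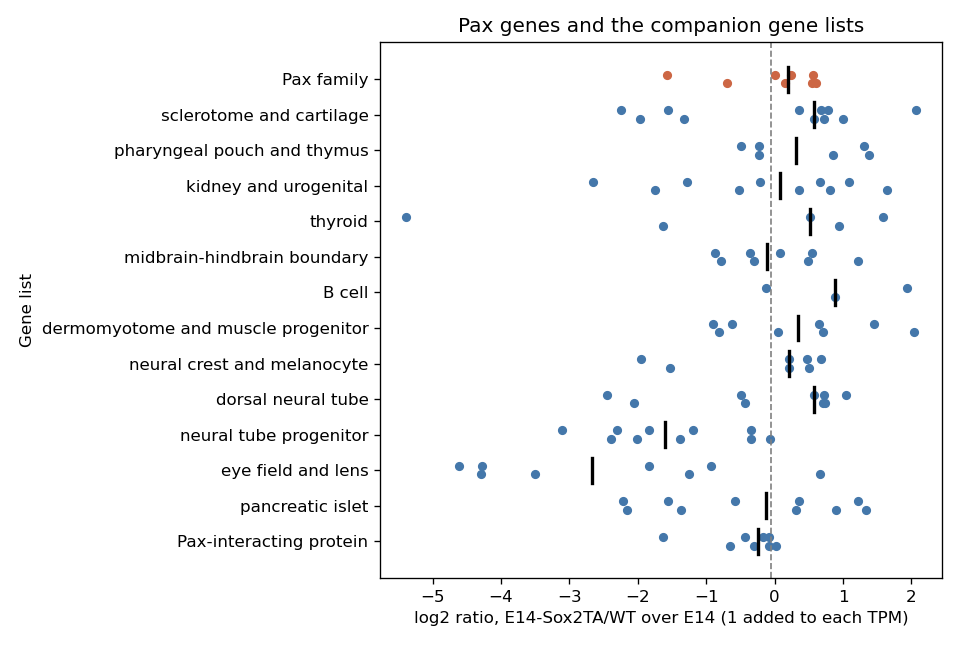
Log2 ratio, E14-Sox2TA/WT over E14 with 1 added to each TPM (horizontal axis), of each tested Pax gene (orange) and each tested gene of the 13 lists (blue). Black bars are list medians and the dashed line is the median of all tested genes, -0.06. The eye field and lens list has the lowest median, -2.67.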

How the data were processed

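Libraries of polyA RNA from 1 E14 and 1 E14-Sox2TA/WT teratoma sample were sequenced. For every gene, a read count, an FPKM (corrected for transcript length and library size) and a TPM were deposited by the authors. The submitters' processing notes name bcl2fastq 2.20.0, Trimmomatic, HISAT2 2.1.0 and StringTie 2.1.3b, without their roles. The file is on mm10, and 45675 of its 45777 identifiers matched a RefSeq table of GRCm38.p6, which gave positions. A fold is the ratio of TPM, E14-Sox2TA/WT over E14, with an interval from the read counts. The depth of 49030281 to 50529171 reads sets that precision. Groups came from the sample titles. Alternatives covered scaling, pseudocount, TPM filter and fold threshold. Calls and intervals were tested on simulated data, with changes set only in genes of higher TPM than any Pax gene. The simulated reads were Poisson counts, as the intervals assume, so the Pax calls themselves were not tested. The Pax genes and the lists were chosen with earlier results of these data known. Named were all members, Sox2, in each list the 2 highest and the 2 most different genes, and the nearest expressed neighbours. Some genes that this rule names are not reported here. Further genes were named after their values were seen, so that counts of 5 or fewer could be resolved. Protein sequences were not used here. TMM factors came from edgeR 4.0.16 in R 4.3.3, and intervals from scipy 1.17.1 in Python 3.11.15.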

Additional observations from a re-analysis of the deposited data

How the results depend on the processing

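No paired analysis was possible because each group has 1 library, and no library could be left out. Of 190 alternative values, 166 stayed within the counting interval, within the interval of the list median, or within a factor of 1.5 of a count, whereas 24 moved further. No fold whose interval lay on 1 side of no difference turned its direction. List medians were less stable, and 12 of their values had the opposite sign, 8 of them with a TPM minimum of 10, which leaves fewer genes. All 12 are counted among the 166, because the intervals of list medians are wide. In lists with 8 or fewer tested genes, which are most of the 13, they span all tested genes, so that a median could hardly leave them. With that minimum, the median of the sclerotome list was -1.44, of the pharyngeal list -0.22, of the kidney list -1.13, of the thyroid list -3.51, of the midbrain-hindbrain list 0.12, of the dermomyotome list -0.62, of the neural crest list -1.75 and of the dorsal neural tube list -0.46. Without a minimum, that of the dermomyotome list was -0.13 and of the islet list 0.015. The midbrain-hindbrain median was 0.06 with FPKM and 0.04 with library totals. The count of 0 Pax genes past the study's rule became 1 higher and 2 lower with a TPM of 1 or more in either library and without a filter. With a TPM of 1 or more, the number higher became 3 above 1.5-fold, and 0 above 3-fold or when the whole counting interval had to lie past 2-fold. These counts of Pax genes rest on the same TPM values and differ only in the rule applied.

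FPKM and library totals moved the median log2 ratio of all tested genes by 0.20 relative to TPM. The fold of Pax3 was 1.78 with FPKM and 1.77 with library totals, that of Pax6 0.309 and 0.317, that of Pax9 1.31 and 1.35, and that of the family sum 1.13 and 1.14. With TMM and median-of-ratios factors, the sum was at 1.04 and 1.05. Pax1 was at 1.42 with library totals, 1.29 with TMM and 1.30 with median-of-ratios factors. With 1 added to each TPM, Pax5 was at 1.48, Pax6 at 0.337 and Pax7 at 0.620, since the addition shrinks folds of low genes. The median of the dorsal neural tube list was 0.79 with library totals.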
